A study of Mus musculus with 15 samples.

Results

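Icos and 8 further immune receptor genes (Icosl, Cd28, Ctla4, Cd68, Csf1r, Ptprc, Adgre1 and Cd14) were read in a mouse tubule cell line, 9 of the 27179 genes measured. Icos was picked because its adjusted p lay under 0.05, with a higher level, in all 4 gel cultures. The values of Icos against 2D are therefore a description and carry no test. The other genes were picked by name as partners or as markers of T cells and macrophages, with earlier results of these data known. Their p-values are thus not those of genes chosen before the data were seen. The cells were induced renal tubular epithelial cells (iRECs), a line obtained by reprogramming fibroblasts with transcription factors and not a primary kidney culture. The groups were Matrigel (a basement membrane extract), fibrin (the protein of blood clots), collagen I (the main fibrillar collagen), inkjet-bioprinted cultures in fibrin with collagen I, called printed here, and 2D plates, with 3 libraries each and 15 in all. Every group grew in renal epithelial growth medium for 7 days, and its 3 libraries came from passages 35, 48 and 53 of 1 line, so they show the spread between cultures and not between animals. The labels name no allele and no drug for these libraries. They mark the printed libraries as guided growth and all others as self assembly. Printing, growth mode and matrix thus change together between printed and other cultures, and cannot be told apart. For printed cultures the labels give fibrin and collagen, while the name of their deposited comparison gives collagen alone.

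The authors' 4 deposited tables, 1 for each gel culture over the same 2D libraries, give 1 base mean (the mean of normalized read counts over 6 libraries), 1 log2 fold change and its standard error per gene. No value per library is among them, so the level in each replicate, the depth of a library and the overlap of groups are not shown here. A positive fold change means higher in the gel culture, ± is the authors' standard error on the log2 scale, and a gene is said to have risen or fallen where the authors' adjusted p was under 0.05. Calls were checked with an empirical null, in which the test statistics are rescaled to the spread of their own central part. Levels in each culture were also worked out from the base mean: the level of a gel culture used the median 2D level that the other 3 tables imply, and the 2D level printed is the median over all 4 tables. A ratio of implied levels was taken over the 2D level of the other 3 tables. The deposited fold change is not the plain ratio of group means, so an implied 2D level is approximate, most of all for genes with few reads. Since all 4 comparisons share the 2D libraries, their values are set side by side and not counted as separate evidence. In bulk RNA, a smaller share of cells with a transcript and less transcript per cell cannot be told apart.

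ICOS is a costimulatory receptor of the CD28 family that activated T cells put on their surface. Its ligand ICOSL is made by antigen-presenting cells and by several non-immune cells, and binding recruits PI3K to the receptor's tail. CD28 and CTLA4 compete for the ligands CD80 and CD86, CD28 as the activator and CTLA4 as the brake. CSF1R, the receptor of CSF1 and IL34, keeps macrophages alive and has also been described in tubule cells after injury. CD68 is a glycoprotein of lysosomes and endosomes that is abundant in macrophages, and CD14 hands bacterial lipopolysaccharide to TLR4 on myeloid cells and on some epithelia. PTPRC (CD45) marks all leukocytes and ADGRE1 (F4/80) marks mouse macrophages.

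Icos, Cd28 and Ctla4 sit side by side on chromosome 1, and the coding stretch around their run of 3 proline codons is shown because it tells the 3 genes apart in sequence. In CD28 and CTLA4 this run lies at the site that binds CD80 and CD86, and in ICOS at the site that binds ICOSL. The stretches come from GENCODE M21 transcripts on GRCm38, read on the plus strand, with the 3 proline codons in capitals. They span coding bases 328 to 372 of Icos, 340 to 384 of Cd28 and 388 to 432 of Ctla4, counted from the first base of the start codon.
Icos: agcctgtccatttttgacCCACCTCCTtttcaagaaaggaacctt
Cd28: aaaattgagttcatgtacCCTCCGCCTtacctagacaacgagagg
Ctla4: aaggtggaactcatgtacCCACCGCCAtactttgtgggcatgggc
Over the whole aligned coding sequence, Icos matched Cd28 at 58.9% of bases and Ctla4 at 60.9%, and Cd28 matched Ctla4 at 61.8%. The longest identical run between transcripts of Icos and Cd28 was 12 bases, and between Icos and Ctla4 it was 11 bases.

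Icos (gene 54167, GRCm38 chromosome 1, 60960773 to 61000322) was more abundant in every gel culture than in 2D. Its implied level was 290 normalized reads per library in Matrigel, 307 in fibrin, 651 in collagen I and 592 in printed cultures, against 81.1 in 2D. The 4 tables placed the 2D level between 75.1 and 124 reads. That range holds 4 estimates from the same 2D libraries and is not a spread between libraries. The gel levels lay above it, which the choice of Icos for its rise favoured. By implied level, collagen I and printed cultures were higher than Matrigel and fibrin. In the authors' deposited tables the log2 fold change over 2D was 1.77 ± 0.28 in Matrigel and 2.07 ± 0.31 in fibrin. It was 3.06 ± 0.30 in collagen I and 2.15 ± 0.31 in printed cultures in the authors' deposited tables. These correspond to 3.40-fold, 4.2-fold, 8.34-fold and 4.43-fold. In printed cultures the ratio of implied levels was 7.53-fold, log2 2.91, above the deposited value, and the cause of this gap was not tested. On the deposited scale, the printed value lay nearer to Matrigel and fibrin, and collagen I was highest. Matrigel minus collagen I was -1.29 (95% interval -2.1 to -0.49), fibrin minus collagen I was -0.99 (-1.83 to -0.15) and printed minus collagen I was -0.91 (-1.76 to -0.07). Matrigel minus fibrin was -0.30 (-1.11 to 0.51), printed minus Matrigel was 0.38 (-0.43 to 1.19) and printed minus fibrin was 0.08 (-0.77 to 0.92). These intervals describe the chosen gene and carry no test. They also hold for the deposited scale alone. By the ratio of implied levels, printed cultures stood at log2 2.91 and collagen I at 2.96.

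**Figure D1:**
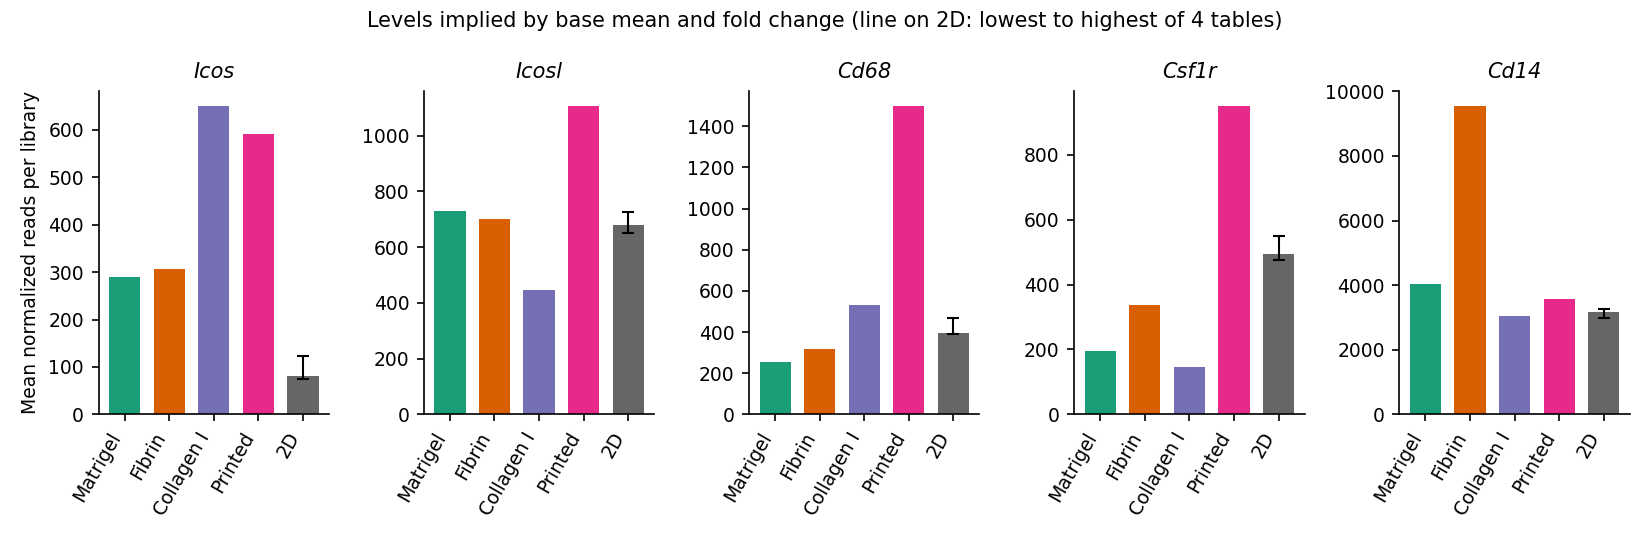
Implied mean normalized reads per library (y axis, linear, from 0) of Icos, Icosl, Cd68, Csf1r and Cd14 in Matrigel, fibrin, collagen I, printed and 2D cultures. The line on the 2D bar runs from the lowest to the highest 2D level that the 4 tables imply. Each gel bar combines the base mean of its own table with the median 2D level of the other tables. The gel bars are drawn without an error bar, although the spread of the 2D estimates carries into them. Icos is lowest in 2D at 81.1 reads, Cd68 and Csf1r are highest in printed cultures, and Cd14 is highest in fibrin.

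When genes whose base mean reached 100 were ordered by deposited fold change, Icos ranked 1 of 11293 in collagen I, 5 of 11394 in printed cultures, 27 of 11346 in Matrigel and 38 of 11371 in fibrin. As Icos was picked for its rise, these ranks are a description. Icos was among 113 genes with a higher level and an adjusted p under 0.05 in all 4 tables, a number shaped by the shared 2D libraries. Between 35.7% and 39.3% of all 27179 genes had a higher base mean than Icos. That total includes genes without reads, 7510 in the collagen I comparison and up to 7795 in the Matrigel comparison. Per kilobase of exon (3.43 kb in GENCODE), the implied level of Icos was 190 reads in collagen I and 23.7 reads in 2D.

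The genes whose 4 deposited fold changes lay nearest to those of Icos, by Euclidean distance over the 4 log2 values among 11175 genes whose base mean reached 100 in each of the tables, were Idi1, Gsta4, Sprr2h, Krt5 and Prkar2b. Idi1, an isomerase of sterol synthesis, lay at a distance of 0.93, and the authors' deposited tables gave it log2 1.31 in Matrigel, 2.27 in fibrin, 2.44 in collagen I and 1.68 in printed cultures. Gsta4, a glutathione transferase, lay at 0.96, with deposited log2 values of 1.94, 1.5, 2.50 and 1.64 in the same order in the authors' deposited tables. Sprr2h, a gene of the cornified envelope with close copies that make its reads uncertain, lay at 1.0, the basal keratin Krt5 at 1.31 and Prkar2b, a regulatory subunit of protein kinase A, at 1.33.

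Cd28 and Ctla4, the neighbours of Icos in the genome and its closest relatives, were at or next to nothing. Cd28 (60746388 to 60773359 on chromosome 1) had a base mean of 0 in the authors' deposited tables for Matrigel, fibrin and printed cultures, which puts all 2D libraries at 0 too. Its base mean of 1.66 in the authors' deposited table for collagen I thus came from the collagen I libraries alone and amounted to 9.94 normalized reads over all of them. The deposited log2 fold change of Cd28 there was 0.18 ± 0.20, small for a gene at 0 in 2D. Ctla4 (60909025 to 60915832) was listed at 0 in the authors' deposited tables for fibrin, collagen I and printed cultures, and at a base mean of 0.333 for Matrigel, which makes 2.00 normalized reads over the Matrigel libraries. Neither gene had an adjusted p in any table. Of the inhibitory receptors of the family, Pdcd1 was listed at 0 in all 4, and Btla reached a base mean of at most 0.363 in the authors' deposited tables.

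The other genes around Icos gave no call. Of 29 annotated genes that start within 1000 kb of its start (RefSeq, GRCm38.p6), 13 were in the tables and 8 had an adjusted p. Of these 8, 0 passed in any of the 4 comparisons by the authors' DESeq2 test. Over all genes tested, 6.36% were called in Matrigel, 8.3% in fibrin, 11.2% in collagen I and 3.18% in printed cultures. A count of 0 among 8 genes lies near these shares and does not set the neighbours apart from other genes. At an unadjusted p under 0.05 there were 3 in Matrigel, 2 in fibrin, 1 in collagen I and 1 in printed cultures, and 0 passed with the empirical null. Raph1, an actin regulator at -489.6 kb from the Icos start, had log2 -0.34 ± 0.21 in Matrigel, 0.42 ± 0.28 in fibrin, 0.07 ± 0.28 in collagen I and 0.54 ± 0.29 in printed cultures in the authors' deposited tables. Abi2, a subunit of the WAVE complex, had log2 values between 0.32 in collagen I and 0.56 in fibrin in the authors' deposited tables, with a lowest adjusted p of 0.15. Pard3b, a polarity gene 678 kb after Icos, stood at log2 -0.74 ± 0.27 in collagen I in the authors' deposited table, where its adjusted p was 0.06.

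**Figure D2:**
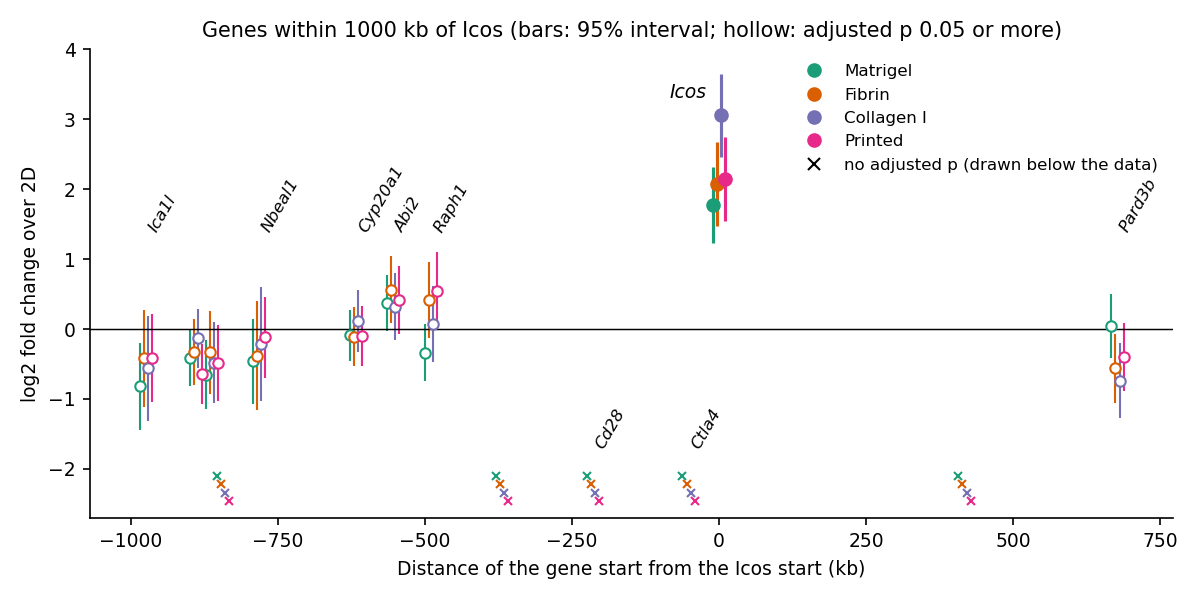
Log2 fold change over 2D (y axis, with 95% intervals) of Icos and of the genes in the tables that start within 1000 kb of it, by distance of their start from the Icos start (x axis, kb). Colours are the 4 cultures, hollow points have an adjusted p of 0.05 or more, and crosses, drawn below the data, mark genes without an adjusted p. Icos lies between 1.77 and 3.06, and the neighbours with an adjusted p lie between -0.82 and 0.56.

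Icosl, the ligand of ICOS, was more abundant than Icos in Matrigel, fibrin, printed and 2D cultures when levels were set per kilobase of exon. Its level per kilobase was 158 normalized reads in Matrigel, 152 in fibrin, 96.5 in collagen I and 240 in printed cultures, against 147 in 2D. Collagen I was the culture where Icos, at 190 reads per kilobase, stood above its ligand. Icosl (gene 50723, chromosome 10, 78069368 to 78079525) did not pass in any table, with log2 0.07 ± 0.20 in Matrigel, 0.07 ± 0.22 in fibrin, -0.43 ± 0.24 in collagen I and 0.54 ± 0.23 in printed cultures in the authors' deposited tables. The adjusted p values there were 0.94, 0.93, 0.27 and 0.28, and the 95% intervals ran from -0.90 to 0.03 in collagen I and from 0.08 to 1.0 in printed cultures. The difference between printed and collagen I cultures was 0.97 on the log2 scale (95% interval 0.32 to 1.63), with an adjusted p of 0.28 over all genes.

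Of the 8 receptor genes other than Icos, 4 had an adjusted p in each table: Icosl, Cd68, Csf1r and Cd14. They passed the authors' filter on low base means, and the other 4 did not. In Matrigel 1 of the 4 fell and 0 rose, where 6.36% of all 14602 genes tested changed, 4.03% higher and 2.32% lower. In fibrin 1 of the 4 rose and 0 fell, where 8.3% of 14636 genes changed, 5.19% higher and 3.11% lower. In collagen I 1 of the 4 fell and 0 rose, where 11.2% of 14064 genes changed, 6.51% higher and 4.65% lower. In printed cultures 2 of the 4 rose and 0 fell, where 3.18% of 15116 genes changed, 2.51% higher and 0.675% lower. With 4 genes a single call already exceeds each of these shares, so the genes are described singly. The median log2 fold change of the 4 was -0.24 in Matrigel, -0.09 in fibrin, -0.15 in collagen I and 0.62 in printed cultures, and that of all genes tested lay between -0.004 and 0.01.

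**Figure D3:**
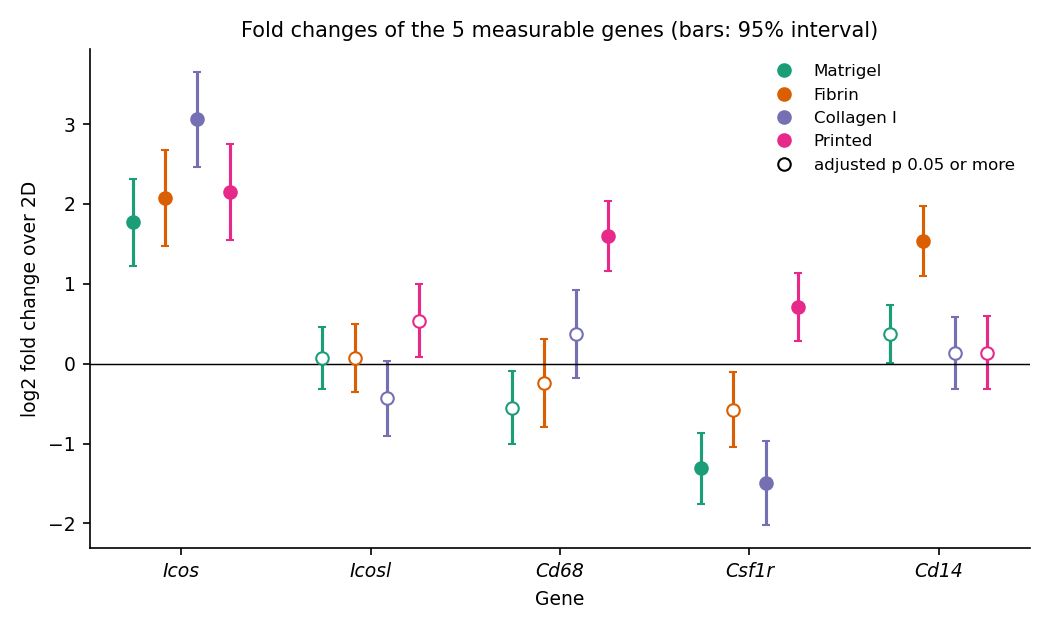
Log2 fold change over 2D (y axis) with 95% intervals for the 5 receptor genes that had an adjusted p, in Matrigel, fibrin, collagen I and printed cultures. Filled points had an adjusted p under 0.05, which for Icos was the reason for its choice. Csf1r lies below 0 in Matrigel, fibrin and collagen I and at 0.71 in printed cultures, Cd68 stands at 1.6 in printed cultures, and Cd14 at 1.54 in fibrin.

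Csf1r was the receptor gene that went both ways. Its implied level was 194 normalized reads per library in Matrigel, 338 in fibrin, 147 in collagen I and 951 in printed cultures, against 495 in 2D, where the 4 tables gave 475 to 548. Matrigel and collagen I were thus far below 2D and printed cultures above it. Csf1r (gene 12978, chromosome 18) fell in Matrigel, with log2 -1.31 ± 0.23 (adjusted p = 9.3e-07), and in collagen I, at -1.5 ± 0.27 (adjusted p = 2.7e-06) in the authors' deposited tables. In fibrin it was at -0.58 ± 0.24 with an adjusted p of 0.13 in the authors' deposited table. It rose in printed cultures, with log2 0.71 ± 0.22 and adjusted p = 0.041 by DESeq2 in the authors' deposited table. That last call was lost when p was adjusted over every gene with a p-value (adjusted p = 0.053) and with the empirical null (adjusted p = 0.13).

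The printed cultures differed in Csf1r from each of the other gel cultures, which the labels mark as self assembly. The difference of log2 fold changes was 2.02 ± 0.31 against Matrigel (adjusted p = 4.3e-07), 1.28 ± 0.32 against fibrin (adjusted p = 0.011) and 2.20 ± 0.35 against collagen I (adjusted p = 2.7e-07). These p-values are two-sided normal p with Benjamini-Hochberg adjustment over all genes of a pair, and their error is on the large side because both fold changes contain the same 2D libraries. Fibrin exceeded collagen I by 0.92 ± 0.36, with an adjusted p of 0.81, and by the same amount with an adjusted p of 0.00057 with the empirical null. Exons of Csf1r share 873 bases, 15.1% of their length, with the gene Hmgxb3 on the opposite strand, and whether reads were counted by strand is not given in the sources used here. Hmgxb3 itself lay between log2 -0.13 and 0.16 in the authors' deposited tables, with 0.79 as the lowest adjusted p.

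The ligands Csf1 and Il34 and the related cytokines Csf2 and Csf3 gave 0 calls of 4 in each table by the authors' DESeq2 test, with 2 at an unadjusted p under 0.05 in Matrigel, 0 in each other culture, and 0 with the empirical null. Over all genes tested, the share called ran from 3.18% in printed cultures to 11.2% in collagen I, so 0 of 4 lies near it. Csf1 was at log2 -0.59 ± 0.27 in Matrigel, 0.20 ± 0.40 in fibrin, -0.35 ± 0.42 in collagen I and -0.36 ± 0.30 in printed cultures in the authors' deposited tables. Il34 was at 0.58 ± 0.27, 0.52 ± 0.31, -0.03 ± 0.27 and 0.01 ± 0.24 in the same order in the authors' deposited tables. Both transcripts were plentiful, with base means from 2940 to 4707 for Csf1 and from 2169 to 3118 for Il34 in the authors' deposited tables.

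Cd68 was high in printed cultures. Its implied level was 253 normalized reads per library in Matrigel, 317 in fibrin, 531 in collagen I and 1499 in printed cultures, against 396 in 2D, where the 4 tables gave 389 to 468. The printed level was 3.84-fold the level in 2D, and the ratio in the other cultures ran from 0.631 in Matrigel to 1.36 in collagen I. Cd68 (gene 12514, chromosome 11, 69664213 to 69666170) rose to log2 1.6 ± 0.23 in printed cultures (adjusted p = 2.1e-09) in the authors' deposited table. It was at -0.55 ± 0.23 in Matrigel, -0.24 ± 0.28 in fibrin and 0.37 ± 0.28 in collagen I in the authors' deposited tables, where the adjusted p was 0.16, 0.74 and 0.47. Printed cultures exceeded Matrigel by 2.15 ± 0.32 on the log2 scale (adjusted p = 1.4e-07) and fibrin by 1.85 ± 0.36 (adjusted p = 0.00011). Over collagen I the difference was 1.23 ± 0.36 (95% interval 0.52 to 1.94) with an adjusted p of 0.088.

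The 250 bases before the start of Cd68 are shown because the gene serves as a macrophage marker, and here it was measured in a tubule line. The sequence is from RefSeq (GRCm38.p6, chr11:69666171-69666420, minus strand), with matches to the AP-1 motif TGAGTCA and to the PU.1 core GAGGAA in capitals.
Cd68 promoter: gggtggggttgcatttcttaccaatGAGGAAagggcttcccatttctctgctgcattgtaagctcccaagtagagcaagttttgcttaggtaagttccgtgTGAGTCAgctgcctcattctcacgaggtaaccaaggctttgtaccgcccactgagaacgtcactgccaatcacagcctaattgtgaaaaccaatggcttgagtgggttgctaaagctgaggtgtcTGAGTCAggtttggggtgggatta
Both strands were searched, and no matches overlapped. TGAGTCA was found at 2 places, starting 149 and 24 bases before the gene start, and 4.46% of 32851 mouse promoter windows of this length held it at least once. GAGGAA was found once, 225 bases before the start, and 23.3% of windows held it. The E-box CACGTG, which lysosomal gene regulators bind, was not among these letters, and 6.02% of windows held it. A match describes letters and not a bound site.

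Lysosomal genes were set beside Cd68. Of 14 genes of lysosomal membranes and hydrolases besides Cd68, 13 had an adjusted p in printed cultures, 0 rose and Hexa, a hexosaminidase subunit, fell to log2 -0.69 ± 0.19 (adjusted p = 0.018) in the authors' deposited table. Of these, 2 had an unadjusted p under 0.05, and 0 passed with the empirical null. Over all genes tested in printed cultures 2.51% rose and 0.675% fell, so 0 of 13 rising lies near the share. With Cd68, 14.3% of the list changed in printed cultures, against 3.18% of all genes tested. Lamp1, of the same protein family as Cd68, was at -0.11 ± 0.20 and the cathepsin gene Ctsd at 0.15 ± 0.21 in the authors' deposited table for printed cultures. Over the whole list with Cd68, 14 genes had an adjusted p in each culture. Of these, 2 fell in Matrigel (14.3%, against 6.36% of all genes tested) and 3 in fibrin (21.4%, against 8.3%). In collagen I 1 fell (7.14%, against 11.2%), and 0 rose in these 3 cultures. The fallen genes were Scarb2, a lysosomal membrane receptor, in all 3, Hexa in Matrigel and fibrin, and the cholesterol exporter Npc1 in fibrin. With the empirical null, Scarb2 in Matrigel was the 1 call of this list that held outside printed cultures. The median of the list was log2 -0.04 in printed cultures, against 0.01 for all genes tested.

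Cd14 was high in fibrin. Its implied level was 4029 normalized reads per library in Matrigel, 9546 in fibrin, 3033 in collagen I and 3556 in printed cultures, against 3173 in 2D, where the 4 tables gave 2972 to 3254. Fibrin stood apart and the other cultures lay near 2D. Cd14 (gene 12475, chromosome 18) rose to log2 1.54 ± 0.22 in fibrin (adjusted p = 1.2e-09) in the authors' deposited table. It was at 0.37 ± 0.19 in Matrigel, 0.13 ± 0.23 in collagen I and 0.13 ± 0.23 in printed cultures in the authors' deposited tables, where the lowest adjusted p was 0.29. Matrigel was lower than fibrin by a log2 difference of -1.16 ± 0.29 (adjusted p = 0.012) and printed cultures by -1.4 ± 0.32 (adjusted p = 0.0028), while fibrin exceeded collagen I by 1.4 ± 0.32 (adjusted p = 0.0038). Printed cultures, whose labels name fibrin as well as collagen, and collagen I differed by 0.002 (95% interval -0.64 to 0.64). The part of fibrin in these values was not tested.

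Partners of CD14 in lipopolysaccharide sensing were measured alongside. Of the 15 other genes of this list, 2 rose in fibrin, Lbp, the serum protein that loads CD14, at log2 4.52 ± 0.28 (adjusted p = 7.7e-56) and Ly96, the TLR4 co-receptor MD-2, at 1.03 ± 0.31 (adjusted p = 0.013) in the authors' deposited table. Tlr4, the receptor itself, was at log2 0.19 ± 0.30 in fibrin and the adaptor Myd88 at -0.08 ± 0.23 in the authors' deposited table. Lbp also rose in Matrigel (log2 1.09 ± 0.29, adjusted p = 0.0061) in the authors' deposited table. Tlr2, which senses bacterial lipoproteins, fell in Matrigel to -0.92 ± 0.23 (adjusted p = 0.0018) and in collagen I to -0.98 ± 0.27 (adjusted p = 0.0057) in the authors' deposited tables. With Cd14, 15 genes of the list had an adjusted p, and 3 rose in fibrin (20%, against 8.3% of all genes tested). In Matrigel 1 rose and 1 fell (13.3%, against 6.36%), and in collagen I 1 fell (6.67%, against 11.2%). In printed cultures 0 of the list's 15 genes with an adjusted p, Cd14 among them, changed by the authors' DESeq2 test, with 4 at an unadjusted p under 0.05 and 0 with the empirical null. There 3.18% of all genes tested changed. Besides Cd14, Lbp in fibrin was the 1 call of the list that held with the empirical null.

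Over the 6 pairs of cultures, 8 of 36 differences of the receptor genes other than Icos passed, 6 genes to a pair. Printed against fibrin had 3 of 6, where 1.05% of all genes differed, and printed against Matrigel had 2 of 6, where 0.435% did. Printed against collagen I had 1 of 6, where 0.662% did, Matrigel against fibrin 1 of 6, where 0.886% did, and fibrin against collagen I 1 of 6, where 0.477% did. Matrigel against collagen I had 0 of 6, where 0.329% of all genes differed. In that last pair 1 gene had an unadjusted p under 0.05 and 0 passed with the empirical null. Ptprc and Adgre1 supplied 2 of the 6 genes of each pair and have almost no reads. The receptor genes were chosen with earlier results of these data known, which limits what these counts mean.

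Ptprc and Adgre1, the general markers of leukocytes and of mouse macrophages, were next to absent. The base mean of Ptprc was 1.44 with Matrigel, 3.02 with fibrin, 0.646 with collagen I and 1.33 with printed cultures in the authors' deposited tables. That of Adgre1 was 0.600, 0.261, 1.25 and 0.585 in the same order in the authors' deposited tables. Neither had an adjusted p, and the unadjusted p in the authors' deposited tables was 0.24 or more. Per kilobase of exon, the 2D level of Ptprc was 0.074 normalized reads, against 85.7 for Csf1r, 315 for Cd68 and 1832 for Cd14.

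Marker lists placed these values beside the cells' identity. All 10 epithelial and tubule markers reached a base mean of 100 in each table, led by the kidney cadherin Cdh16, with up to 64782 normalized reads in the authors' deposited table for printed cultures. Of 25 macrophage markers, Csf1r, Cd68 and Cd14 were the 3 that reached 100 in every table, 17 never reached 10, and Lyz1, Cd163, C1qb and C1qc were at 0 in all. Of 18 T-cell markers, 14 never reached 10, and Cd3e, Trbc1 and Trbc2 were at 0 in all 4 tables. Of 14 pan-leukocyte markers 10 never reached 10, and of 6 B-cell markers 5 never did. The B-cell list gave 0 calls in every culture by the authors' DESeq2 test or the empirical null, with 1 at an unadjusted p under 0.05 in fibrin and 1 in collagen I. Only 1 or 2 of its genes had an adjusted p in a culture, so 0 calls lies near the 3.18% to 11.2% of all genes tested. Of the epithelial markers, the adhesion genes Cdh1 and Epcam rose in Matrigel and the keratin Krt19 in printed cultures, while the kidney transcription factor Pax8 fell in fibrin and in collagen I and the keratin Krt8 in collagen I. With the empirical null Cdh1, Epcam and Krt19 held, and Pax8 and Krt8 did not. Of the 10, 20% changed in Matrigel (against 6.36% of all genes tested) and 10% in fibrin (against 8.3%). The shares were 20% in collagen I (against 11.2%) and 10% in printed cultures (against 3.18%).

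**Figure D4:**
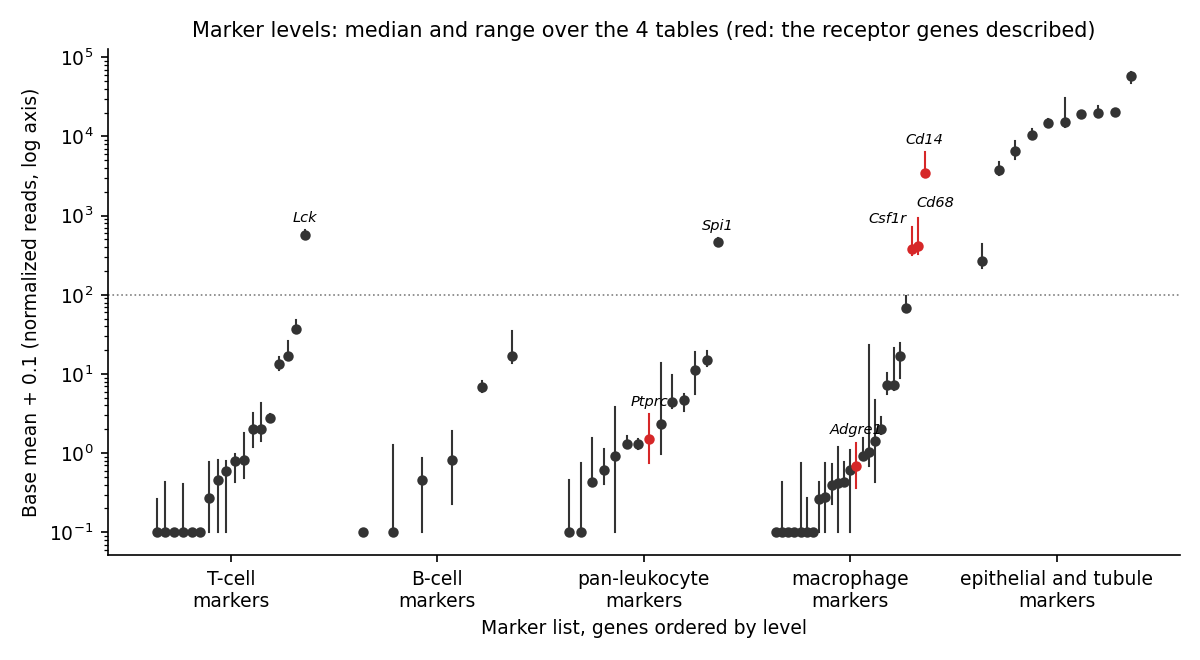
Base mean plus 0.1 (y axis, log scale, normalized reads) of every gene in 5 marker lists, as the median (point) and range (line) over the 4 tables, ordered by level within a list. Red marks the receptor genes described here and the dotted line stands at a base mean of 100. Most leukocyte, T-cell, B-cell and macrophage markers lie below 10, while Lck, Spi1, Csf1r, Cd68, Cd14 and the 10 epithelial markers lie above the line.

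Beside the values of Icos, 0 of the 4 T-cell markers with an adjusted p changed in any culture by the authors' DESeq2 test or with the empirical null, with 1 at an unadjusted p under 0.05 in fibrin and 1 in collagen I. Between 3.18% (printed) and 11.2% (collagen I) of all genes tested changed, so 0 of 4 lies near these shares. The summed implied level of the 18 T-cell markers was 739 normalized reads in Matrigel, 471 in fibrin, 460 in collagen I and 672 in printed cultures, against 733 in 2D. The kinase gene Lck made up most of each sum: without it the sums were 73.4, 73.6, 60.4 and 126 in the same cultures, against 80.0 in 2D. The full sum was thus lower than in 2D in fibrin, collagen I and printed cultures and near it in Matrigel, and without Lck it was above 2D in printed cultures. The part of these markers in the Icos values was not tested.

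Beside Cd14 in fibrin, 2 other macrophage markers rose there. With Cd14 that was 3 of the 8 with an adjusted p (37.5%, against 8.3% of all genes tested). Trem2, a lipid receptor of macrophages, was at log2 2.06 ± 0.40 (adjusted p = 1.7e-05) and Itgam, an integrin of myeloid cells, at 1.24 ± 0.40 (adjusted p = 0.028) in the authors' deposited table for fibrin, at base means of 23.5 and 24.9. Trem2 held with the empirical null (adjusted p = 0.01) and Itgam did not (adjusted p = 0.33). The implied level of Trem2 was 46.4 normalized reads in fibrin, against 0.585 in 2D by the other 3 tables. Without the receptor genes named here, the macrophage markers summed to an implied level of 193 normalized reads in fibrin, against 122 in 2D. With the highest of them, Mertk, also left out, the sums were 38.9 in Matrigel, 143 in fibrin, 46.9 in collagen I and 20.1 in printed cultures, against 34.7 in 2D. In fibrin that sum was 4.47-fold the 2D sum of the other 3 tables, and 2.09-fold when both levels were split from the fibrin table by its own fold changes, a calculation chosen after the values were seen. In printed cultures the same ratios were 0.533 and 0.951. The part of these markers in the Cd14 value was not tested. Beside Cd68 and Csf1r in printed cultures, 0 of the other macrophage markers passed by the authors' DESeq2 test, at an unadjusted p under 0.05 or with the empirical null. With these 2 genes, 28.6% of the 7 macrophage markers with an adjusted p changed there, against 3.18% of all genes tested. The leukocyte gene Hcls1 was the pan-leukocyte marker that rose in collagen I, with log2 1.10 ± 0.39 and an adjusted p of 0.046 in the authors' deposited table and of 0.69 with the empirical null. Its base mean there was 13.8. It was 1 of the 3 pan-leukocyte markers with an adjusted p in collagen I (33.3%, against 11.2% of all genes tested). Without Ptprc and Spi1, pan-leukocyte markers summed to 43.3 implied reads in Matrigel, 89.7 in fibrin, 57.4 in collagen I and 34.5 in printed cultures. Their 2D sum was 38.1. The fibrin ratio was 2.42-fold over the 2D sum of the other 3 tables, and 1.46-fold by the fibrin table's own split. With Spi1 the fibrin sum was 512, against 520 in 2D. B-cell markers summed to 19.7, 62.9, 22.2 and 23.1 in the same order of cultures, against 25.6 in 2D.

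Ligands and receptors of other costimulatory pathways were read next. Of 8 ligands of the B7 family besides Icosl, Cd80, a ligand of CD28 and CTLA4, rose in collagen I (log2 1.70 ± 0.36, adjusted p = 0.00011), and Cd274, the ligand PD-L1, fell there (log2 -1.01 ± 0.29, adjusted p = 0.0082) in the authors' deposited table. Vtcn1, the inhibitory ligand B7-H4, rose in fibrin (log2 1.57 ± 0.38, adjusted p = 0.0012) in the authors' deposited table. With Icosl, 6 genes of the list had an adjusted p in fibrin, of which 1 changed (16.7%, against 8.3% of all genes tested), and 5 in collagen I, of which 2 changed (40%, against 11.2%). With the empirical null 0 of these 3 calls held. In Matrigel and in printed cultures 0 of the 8 passed by the authors' DESeq2 test or the empirical null, with 1 and 0 at an unadjusted p under 0.05. The shares of all genes tested that changed were 6.36% and 3.18% there. Cd276, the most abundant of them, lay between -0.15 and -0.01 in all 4 deposited tables of the authors. The median over the list with Icosl was log2 -0.08 in Matrigel, -0.01 in fibrin, -0.43 in collagen I and 0.03 in printed cultures, over members with a p-value.

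Of 16 other costimulation genes, those with an adjusted p were 9 in Matrigel, 9 in fibrin, 9 in collagen I and 10 in printed cultures. Of these, 1 changed in Matrigel (11.1%, against 6.36% of all genes tested), 2 in fibrin (22.2%, against 8.3%), 1 in collagen I (11.1%, against 11.2%) and 1 in printed cultures (10%, against 3.18%). Tnfsf9, the ligand 4-1BBL, rose in fibrin (log2 0.75 ± 0.25, adjusted p = 0.037), collagen I (0.76 ± 0.25, adjusted p = 0.03) and printed cultures (0.93 ± 0.24, adjusted p = 0.0074) in the authors' deposited tables. Its receptor Tnfrsf9 fell in Matrigel to -0.76 ± 0.25 (adjusted p = 0.035) and rose in fibrin to 1.03 ± 0.26 (adjusted p = 0.0018) in the authors' deposited tables. With the empirical null the call of Tnfsf9 in printed cultures held (adjusted p = 0.038), and the other 4 did not. Nectin2, the most abundant gene of this list, lay between -0.13 and 0.20 in all 4 deposited tables of the authors.

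Of 11 genes that control Icos messenger RNA or signal below the receptor, all with an adjusted p, 3 changed in fibrin (27.3%, against 8.3% of all genes tested) and 1 in collagen I (9.09%, against 11.2%). The RNA-binding proteins Rc3h1 and Rc3h2 (Roquin), which destabilise Icos messenger RNA in T cells, lay between log2 -0.14 and 0.37 in the authors' deposited tables with a lowest adjusted p of 0.56. Zc3h12a (Regnase-1), an RNase with the same target in T cells, rose in fibrin (log2 1.70 ± 0.35, adjusted p = 6.5e-05) and did not pass elsewhere in the authors' deposited tables. Among PI3K subunits, the regulatory Pik3r1 fell in fibrin (log2 -0.82 ± 0.21, adjusted p = 0.003) and in collagen I (-0.62 ± 0.22, adjusted p = 0.048), while the leukocyte-type catalytic Pik3cd rose in fibrin (1.46 ± 0.29, adjusted p = 4.3e-05) in the authors' deposited tables. Zc3h12a and Pik3cd in fibrin held with the empirical null, and the calls of Pik3r1 did not. Of the 11 genes of this list, 0 changed in Matrigel and 0 in printed cultures by the authors' DESeq2 test or the empirical null, with 1 and 0 at an unadjusted p under 0.05. The shares of all genes tested that changed were 6.36% and 3.18% there.

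**Figure D5:**
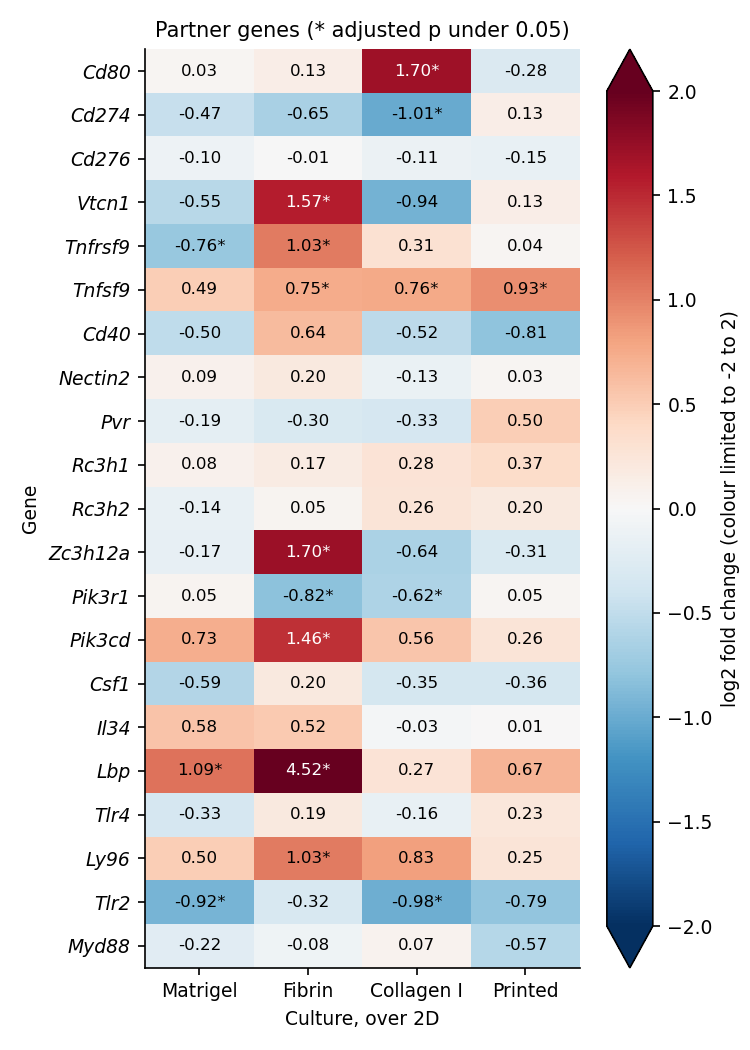
Log2 fold change over 2D of 21 partner genes (rows) in the 4 cultures (columns), with the deposited value in each cell and a star where the adjusted p was under 0.05. The rows were picked from the lists after their values were seen. Colour is limited to the range from -2 to 2, which Lbp exceeds in fibrin at 4.52. Zc3h12a, Vtcn1, Lbp and Ly96 are highest in fibrin, and Cd80 in collagen I.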

How the data were processed

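RNA of 15 libraries in 5 groups was sequenced. The submitters' processing notes name DESeq2 1.22.1, featureCounts 1.6.3, STAR 2.6.0b-1, Trim Galore 0.4.3, FastQC 0.72 and the genome mm10, with no role or order. For annotation, strand setting and model covariates the sources used here give nothing. Base mean in the authors' deposited tables is a signal, as DESeq2 defines it: read counts divided by size factors and averaged over 6 libraries. With 3 libraries a group it is the mean of the gel and 2D levels. A 2D level was estimated by splitting it with the deposited fold change, which is not the plain ratio of group means. The deposited fold change is a log2 value with its standard error, the deposited Wald statistic is a score, and the deposited p-value and adjusted p-value are the authors'. The tables were used as deposited, with 0 columns of values per library.

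Genes were matched by symbol, and 93.0% of gene IDs were in RefSeq for GRCm38.p6. Fold changes of 2 cultures were subtracted, with both standard errors combined as a root sum of squares, and adjusted by Benjamini-Hochberg in Python 3.11.15 with scipy 1.17.1, after tests on simulated data. Alternatives were adjustment over all genes with a p-value, over base means of 10 or more, and an empirical null (Wald statistics centred and scaled by their median and interquartile range). The members and 12 lists were chosen with earlier results of these data known. Named genes were the members, the called or most abundant list genes, Icos neighbours and the 5 genes nearest to Icos in fold changes. Neighbours without a call (Raph1, Abi2, Pard3b) and Tlr4, Myd88, Lamp1, Pdcd1, Btla, Il34, Rc3h1, Rc3h2 and Hmgxb3 were named for their position or role, after their values were seen. Promoters of 4 members were in the RefSeq table.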

Additional observations from a re-analysis of the deposited data

Results flagged for a closer look

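The effect of a culture over 2D differed between 2 cultures for 3 receptor genes, by the test of the difference itself, at an adjusted p under 0.05. Cd68 was higher in printed cultures than in Matrigel by 2.15 and than in fibrin by 1.85 on the log2 scale. Csf1r was higher in printed cultures than in Matrigel by 2.02, than in fibrin by 1.28 and than in collagen I by 2.20. Cd14 had a difference of -1.16 for Matrigel minus fibrin, 1.4 for fibrin minus collagen I and -1.4 for printed minus fibrin.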

How the results depend on the processing

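The calls of the 8 receptor genes other than Icos were counted again under 3 alternatives. The numbers for Matrigel, fibrin and collagen I stayed at 1 each, and the number for printed cultures was 1 in place of 2 when p was adjusted over every gene with a p-value and with the empirical null, because Csf1r no longer passed. Among the 138 list genes that are not receptor genes described here, the authors' adjusted p called 7 in Matrigel, 14 in fibrin and 9 in collagen I, against 3, 4 and 0 with the empirical null. Over all genes, the authors' adjusted p called 928 in Matrigel, 1215 in fibrin, 1570 in collagen I and 481 in printed cultures, against 373, 336, 146 and 270 with the empirical null. The cause was not tested. In printed cultures 3 of the 138 list genes were called by the authors' adjusted p, and 2 with the empirical null. For genes around Icos the number was 0 throughout. Levels worked out from base means moved the log2 fold change in printed cultures to 2.91 for Icos, 1.94 for Cd68 and 0.95 for Csf1r. Of 36 differences between cultures, 35 kept their side of the threshold with the empirical null. Depth per library is unknown, which limits Cd28, Ctla4, Ptprc and Adgre1, and leaving out a library was not run for want of values per library. No paired analysis was possible because the tables hold no values per library that passage numbers could pair.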

Other observations

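A pair of genes known as regulators of blood cells were well detected, while most other leukocyte markers were not, and neither passed in any table. Spi1, which encodes the myeloid transcription factor PU.1, had base means from 431 to 518 in the authors' deposited tables, log2 fold changes between -0.36 and 0.25, and a lowest adjusted p of 0.41. Lck, a kinase of T-cell receptor signalling, had base means from 531 to 653 and log2 fold changes between -0.61 and -0.06 in the authors' deposited tables, with a lowest adjusted p of 0.1. The implied level of Lck was 398 reads in fibrin and 400.0 in collagen I, against 664 in 2D by the other tables. Per kilobase of exon, their levels in 2D were 179 reads for Spi1 and 223 for Lck.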
